A study of Mus musculus with 8 samples.

Results

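Transcripts of 10 members of the circadian clock were followed, array by array, in islets of mice that lack Fbln5 in β-cells and of their controls. They were Dbp, Tef, Per1, Per2, Per3, Cry1, Cry2, Nr1d1, Nr1d2 and Clock, chosen by name as the probes whose RefSeq identifier maps to these 10 symbols, out of 22911 genes with a named probe. The mice were male littermates. Control mice carried Fbln5-floxed alleles and are labelled floxed, with no mention of Cre. βFbln5KO mice carried the same alleles together with Ins1-Cre, a BAC transgene in which the mouse insulin 1 promoter drives Cre, so that deletion is directed to β-cells while the other cells of the islet keep the gene. Islets were isolated at 11 weeks, RNA was extracted at once from 150 islets per sample, and 4 samples per genotype were hybridised to 8 one-colour Agilent arrays on 1 slide. The sources used here do not give the number of mice behind a sample, so the p-values measure the spread between these samples. They also do not give the time of day of islet isolation, although the mice lived in a light/dark cycle.

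The clock is a feedback loop of transcription that runs in nearly every cell. CLOCK and BMAL1 (the product of Arntl) activate the Per and Cry genes, whose proteins return to the nucleus and inhibit them. CLOCK and BMAL1 also activate Nr1d1 and Nr1d2, nuclear receptors that repress Arntl, and Dbp, Tef and Hlf, PAR-domain bZIP factors that pass the rhythm on to output genes, so transcripts of the loop peak at different hours of the day. In islets the clock is known for its part in the timing of insulin secretion.

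The 10 genes were covered by 19 probes, of which 14 were well above background on all 8 arrays, 4 on some arrays and 1 on none. Per1, Cry2 and Nr1d1 had 1 probe each, and the other genes are described by their brightest probe unless stated otherwise. Every value is a log2 signal after subtraction of the array's 75th percentile, so 0 is the 75th percentile of the array and a difference of 1 is a 2-fold difference. Levels of different genes cannot be ranked, since each probe has its own efficiency. The share of spots well above background reached 56.6 to 58.8% in control and 52.6 to 56.6% in βFbln5KO. All control arrays lay in one row of the slide and all βFbln5KO arrays in the other, so the effects of row and genotype cannot be told apart. Fbln5 was -1.72 ± 0.31 in control and -2.22 ± 0.59 in βFbln5KO (SD, n = 4 each, limma adjusted p = 0.342), and at -1.37 the array of βFbln5KO replicate 4 reached the control values. The part of the transcript that its probe reads was not checked against the deleted exons. The 8 β-cell marker transcripts on the list, among them Ins1, Ins2 and Mafa, were well above background on every array.

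Promoter sequences show what some of these genes share outside the array. Of the 10 genes, 9 had entries in the RefSeq promoter table (GRCm38.p6), 13 promoters in all, and Per2 had none. The 250 bases before each start were searched on both strands for 4 motifs by their letters. They were the E-box CACGTG, read by CLOCK and BMAL1, the D-box TTATGTAA or TTACGTAA, read by Dbp, Tef, Hlf and Nfil3, the ROR element TAGGTCA, read by the Nr1d and Ror receptors, and the cAMP response element TGACGTCA, read by CREB. Among all 32851 promoters of the table, 6.02% held the E-box, 0.931% the D-box, 2.23% the ROR element and 1.55% the cAMP response element. An E-box lay in both promoters of Tef, in 1 promoter of Per1 and in that of Cry1, and 2 D-boxes lay in that of Per3. None of the 4 motifs was found in these windows of Dbp, Cry2, Nr1d1, Nr1d2, Clock or Arntl. The 4 promoters below carry the matches of the listed genes, with 1 of the 2 Tef promoters shown. Capitals mark the matched motifs, none of which overlap. They are 250 bases each, 5′ to 3′ on the strand of the gene: Per3 at chr4:151044666-151044915 (minus strand), Tef at chr15:81802423-81802672 (plus strand), Per1 at chr11:69098699-69098948 (plus strand) and Cry1 at chr10:85185055-85185304 (minus strand).
Per3: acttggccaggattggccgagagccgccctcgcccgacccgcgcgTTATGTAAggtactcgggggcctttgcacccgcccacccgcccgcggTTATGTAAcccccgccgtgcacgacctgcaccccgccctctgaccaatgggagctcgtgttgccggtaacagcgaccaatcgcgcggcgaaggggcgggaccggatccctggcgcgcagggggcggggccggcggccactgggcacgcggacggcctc
Tef: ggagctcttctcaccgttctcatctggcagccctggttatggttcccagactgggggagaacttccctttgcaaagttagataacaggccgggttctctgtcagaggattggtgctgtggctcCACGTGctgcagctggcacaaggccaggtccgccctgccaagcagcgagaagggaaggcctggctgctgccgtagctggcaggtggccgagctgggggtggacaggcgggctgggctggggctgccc
Per1: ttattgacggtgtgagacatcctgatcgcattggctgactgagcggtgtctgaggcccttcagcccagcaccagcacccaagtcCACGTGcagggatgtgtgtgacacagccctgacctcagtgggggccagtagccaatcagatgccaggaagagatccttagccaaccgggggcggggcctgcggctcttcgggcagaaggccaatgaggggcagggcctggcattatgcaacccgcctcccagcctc
Cry1: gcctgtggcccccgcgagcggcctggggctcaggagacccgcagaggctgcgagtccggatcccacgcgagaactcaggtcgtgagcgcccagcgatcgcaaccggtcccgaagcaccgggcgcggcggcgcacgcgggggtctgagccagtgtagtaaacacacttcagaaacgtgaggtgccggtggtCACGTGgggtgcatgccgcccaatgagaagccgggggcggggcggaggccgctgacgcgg

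No clock gene differed between βFbln5KO and control islets past the adjusted threshold, and for each of the 10 the range within either genotype was wider than the difference between the 2 means. Across all probes, limma with Benjamini-Hochberg adjustment called 6 of 56605 probes (0.0106%), 5 higher and 1 lower in βFbln5KO, and 0 of the 10 clock genes were among them. The count over all probes was 11206 higher and 338 lower without βFbln5KO replicate 4, and 6184 higher and 394 lower in eBayes without trend, with 0 of the 10 clock genes called in either. At an unadjusted p under 0.05 the count was again 0 of 10, where 4.02% of the 13552 genes well above background on every array passed. The log2 fold changes ran from -0.48 for Nr1d1 to 0.29 for Per1, 7 below 0 and 3 above, with a median of -0.02 against -0.01 over all genes. The groups overlapped for each of the 10, whereas they did not overlap for 2.72% of genes. In whole islets, fewer cells of a type and less RNA per cell cannot be told apart. The 95% intervals bound what could have been missed. They reached from a log2 fold change of -0.90 to 0.59 for Dbp, from -0.57 to 1.15 for Per1 and from -1.24 to 0.28 for Nr1d1, but only from -0.22 to 0.02 for Clock. In simulated data with the spread of these arrays, 71.5% of probes shifted by a log2 change of 2 were called. Those probes were picked at random from all 56605, dim ones included, so the share does not describe the 10 clock genes.

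**Figure D1:**
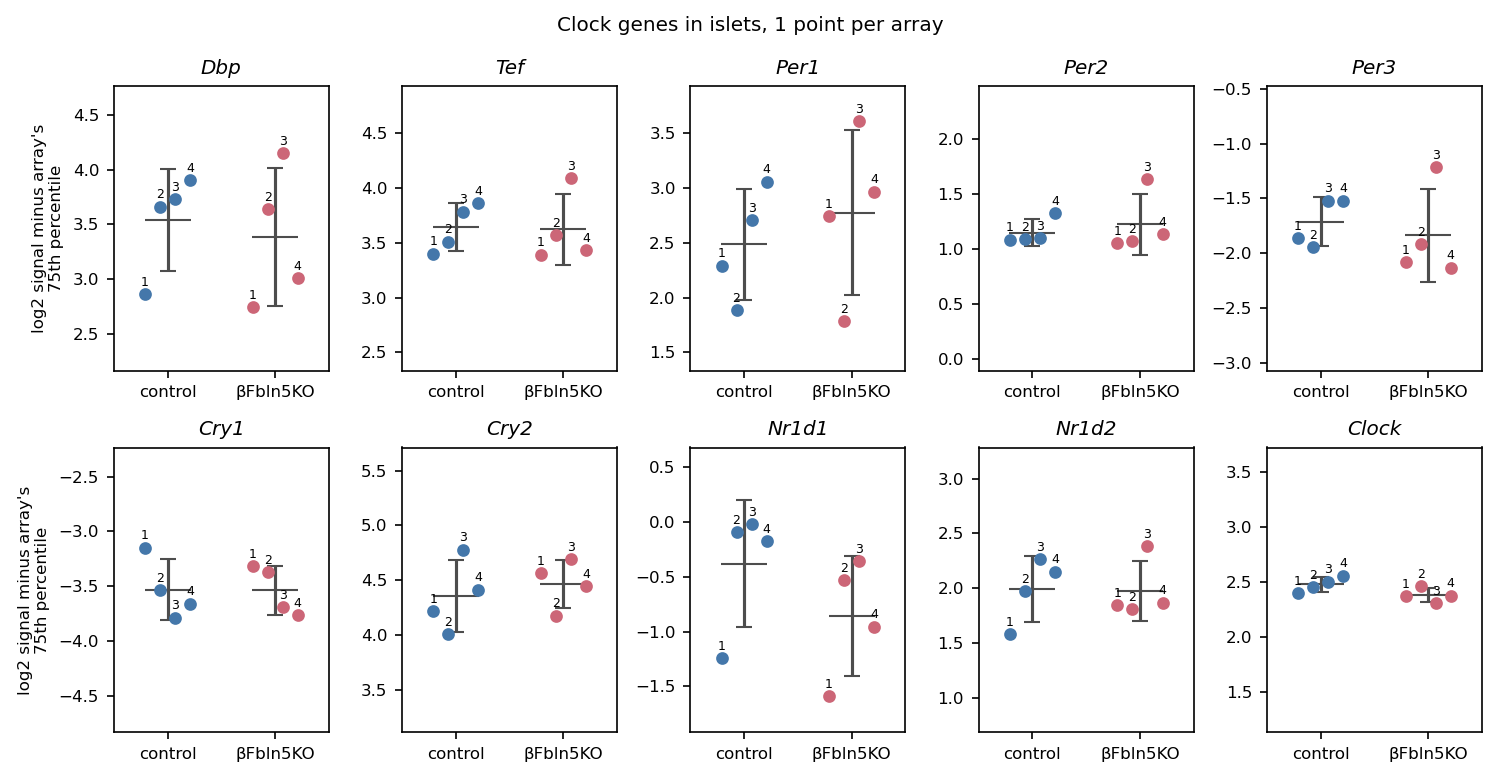
Log2 signal minus the array's 75th percentile for the 10 clock genes, 1 point per array numbered by replicate, with the group mean and SD, and every panel spans the same height on the log2 scale. The groups overlap in all 10 panels, and βFbln5KO replicate 3 is the highest of the 8 arrays in 6 of them.

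Dbp is the PAR-domain bZIP factor that is widely used to read the phase of a tissue's clock. Its signal was 2.86, 3.66, 3.73 and 3.90 in control replicates 1 to 4 and 2.75, 3.64, 4.15 and 3.01 in βFbln5KO replicates 1 to 4. Control replicate 1 and βFbln5KO replicates 1 and 4 were low, the other 5 arrays were high, and a gap of 0.63 separated the 3 low arrays from the 5 high ones. Both ends of the range belonged to βFbln5KO arrays, 2.64-fold apart, and the log2 fold change between genotypes was -0.15 ± 0.33 (SE, limma adjusted p = 0.849). The other Dbp probe, well above background on all arrays, gave -0.09 and the same 3 low arrays, at 2.65, 2.66 and 2.83.

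Tef, of the same family, ran close to the order of Dbp in a narrower range. It measured 3.40, 3.51, 3.78 and 3.86 in control and 3.39, 3.57, 4.09 and 3.43 in βFbln5KO, in replicate order. The 3 arrays low in Dbp were the 3 lowest here too, βFbln5KO replicate 3 was again the highest, and the extremes were 1.62-fold apart. Its log2 fold change was -0.02 ± 0.17 (SE, limma adjusted p = 0.968). The second Tef probe, from 0.54 to 1.22, had the same 3 lowest arrays and the same highest one, and the remaining one was not well above background on any array.

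Hlf, the remaining member of that family, lies outside the 10 genes and spanned -2.57 to -2.07 in control and -2.90 to -1.91 in βFbln5KO. Its highest array was βFbln5KO replicate 3 as well, and its 2 lowest were βFbln5KO replicates 4 and 1, at -2.90 and -2.81.

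Among the Period genes, whose products inhibit CLOCK and BMAL1, Per1 varied most. Its values were 2.29, 1.89, 2.71 and 3.06 in control and 2.74, 1.79, 3.61 and 2.97 in βFbln5KO. Here the low arrays were replicate 2 of either genotype rather than those low in Dbp, and the extremes, both βFbln5KO arrays, were 3.54-fold apart. The log2 fold change of 0.29 ± 0.38 (SE, limma adjusted p = 0.733) was smaller than its error.

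Per2 was close to level on 6 arrays. It measured 1.08, 1.09, 1.10 and 1.33 in control and 1.05, 1.07, 1.64 and 1.14 in βFbln5KO, so control replicate 4 and βFbln5KO replicate 3 stood above the other arrays of their groups. The log2 fold change was 0.07 ± 0.13 (SE, limma adjusted p = 0.812). The second probe lay near background, at -4.63 to -4.29 in control and -4.78 to -4.21 in βFbln5KO (log2 fold change -0.03, limma adjusted p = 0.960). It was well above background on the 4 control arrays only, where the lowest signal of that kind was -5.01 to -4.79 per array, against -4.70 to -4.19 in βFbln5KO.

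Per3, a weaker inhibitor than the other Period proteins, gave -1.87, -1.94, -1.52 and -1.52 in control and -2.08, -1.92, -1.21 and -2.13 in βFbln5KO. Control replicates 3 and 4 and βFbln5KO replicate 3 were high and the other 5 arrays low, and the log2 fold change was -0.12 ± 0.21 (SE, limma adjusted p = 0.805). Its second probe was well above background on 1 array only.

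The Cryptochromes are the partners of the Period proteins in repression. Cry1, whose transcript is known to peak late among the inhibitors, measured -3.15, -3.53, -3.79 and -3.66 in control and -3.32, -3.37, -3.69 and -3.76 in βFbln5KO. Its highest array, control replicate 1, was among the low ones for Dbp. The group means were -3.53 and -3.54, and the log2 fold change was -0.0042 ± 0.21 (SE, limma adjusted p = 0.994). A second probe, well above background on 2 control arrays only, spanned -5.39 to -4.34 in control and -4.99 to -4.45 in βFbln5KO (log2 fold change 0.16, limma adjusted p = 0.833).

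Cry2 measured 4.22, 4.01, 4.78 and 4.41 in control and 4.57, 4.18, 4.69 and 4.44 in βFbln5KO. Replicate 2 was the lowest and replicate 3 the highest in either genotype, and the log2 fold change was 0.12 ± 0.17 (SE, limma adjusted p = 0.766).

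Nr1d1, which encodes REV-ERBα, a repressor of Arntl, had the largest difference between genotypes among the 10 in size. Its values were -1.24, -0.09, -0.02 and -0.17 in control and -1.59, -0.53, -0.36 and -0.96 in βFbln5KO. Control replicate 1 lay far below the other control arrays and inside the βFbln5KO range, and the arrays low in Nr1d1 were those low in Dbp. The log2 fold change of -0.48 ± 0.33 (SE) had a limma adjusted p of 0.460 and an exact two-sided permutation p of 0.257, where the smallest that 4 against 4 arrays can give is 0.029. Without control replicate 1 it was -0.76 with an unadjusted limma p of 0.022 and an adjusted one of 0.155, and without βFbln5KO replicate 1 it was -0.23.

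Nr1d2, which encodes the related receptor REV-ERBβ, measured 1.58, 1.97, 2.27 and 2.15 in control and 1.85, 1.81, 2.38 and 1.87 in βFbln5KO. Control replicate 1 was the lowest array and βFbln5KO replicate 3 the highest, and the log2 fold change was -0.02 ± 0.17 (SE, limma adjusted p = 0.974). The second probe had the same lowest and highest arrays, at 0.36 and 1.06.

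Clock, the activator itself and a gene whose transcript is known to vary little over the day, hardly varied. It measured 2.40, 2.45, 2.50 and 2.56 in control and 2.37, 2.46, 2.30 and 2.37 in βFbln5KO. The extremes were 1.19-fold apart, and the groups overlapped through βFbln5KO replicate 2. The log2 fold change was -0.10 ± 0.05 (SE), with a limma adjusted p of 0.297 and an exact two-sided permutation p of 0.086. A second probe, well above background on all arrays, gave 0.03, and another was well above background on 1 array.

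**Figure D2:**
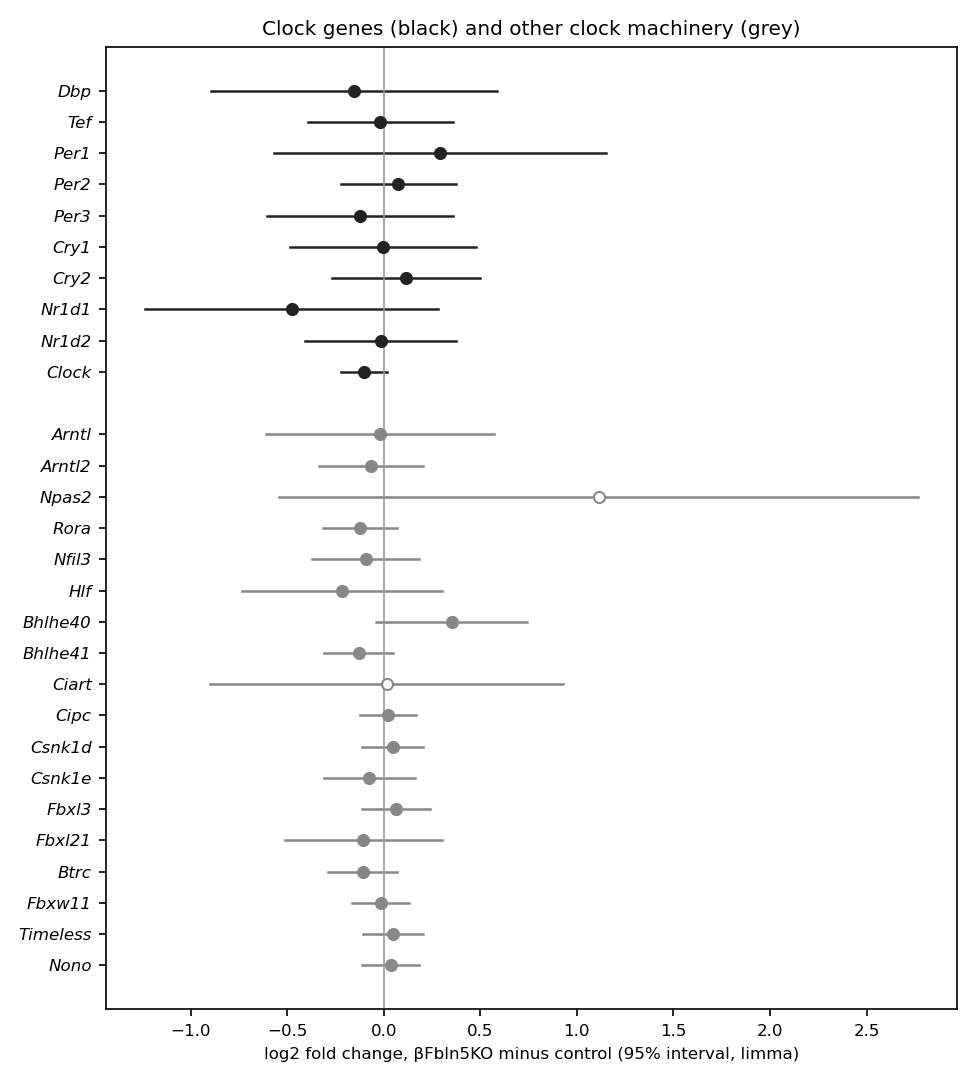
Log2 fold change of βFbln5KO against control with its 95% interval from limma, for the 10 clock genes (black) and other genes of the clock machinery (grey), and open circles mark genes not well above background on every array. All intervals shown include 0, and that of Clock, from -0.22 to 0.02, is the narrowest of the 10.

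The rest of the machinery gave the same picture between genotypes. Of 20 further genes on the list, 19 had a probe (Rorb had none), and 0 passed the adjusted or the unadjusted threshold, with 10 log2 fold changes below 0 and 9 above and a median of -0.02. Arntl, the partner of Clock, measured 0.14, -0.03, -0.58 and -0.35 in control and -0.22, 0.09, -0.97 and 0.20 in βFbln5KO. Its lowest array, βFbln5KO replicate 3, was the one highest for Dbp, and its log2 fold change was -0.02. Npas2, which can stand in for Clock, was well above background on βFbln5KO replicate 4 alone, at -2.77.

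Among the receptors that act against the REV-ERBs on Arntl, Rora had a log2 fold change of -0.12, with adjusted p = 0.438. Nfil3, the repressor that competes with Dbp for the D-box, spanned 2.31 to 2.50 in control and 2.09 to 2.65 in βFbln5KO. Ciart, another repressor of CLOCK and BMAL1, was well above background on 6 arrays and ran from -4.90 in βFbln5KO replicate 1 to -3.20 in βFbln5KO replicate 3. The other Ciart probe, well above background on 2 arrays, did not follow it and was at -1.83 on βFbln5KO replicate 1 and -6.46 on replicate 3.

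Bhlhe40 and Bhlhe41 encode the DEC repressors, which bind the same E-boxes as CLOCK and BMAL1. For Bhlhe40 the log2 fold change was 0.35 ± 0.17 (SE, limma adjusted p = 0.261). By the brightest probe, Bhlhe41 was the 1 gene of the 19 whose groups did not overlap, where 2.72% of all genes did not, at -1.81 to -1.71 in control against -1.93 to -1.85 in βFbln5KO, a log2 fold change of -0.13 ± 0.08 (SE) with a limma adjusted p of 0.373. The other Bhlhe41 probe did not show it and spanned -4.09 to -3.69 in control and -4.57 to -0.62 in βFbln5KO. For Timeless, a replication fork protein also tied to the clock and named here after its values were seen, a dimmer probe well above background on 7 arrays did not overlap either, at -3.87 to -2.21 in control and -4.09 to -3.91 in βFbln5KO (log2 fold change -0.88, unadjusted p = 0.027 and limma adjusted p = 0.132). The brightest Timeless probe had a log2 fold change of 0.05 (limma adjusted p = 0.760).

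Outputs and inputs of the clock were read from further lists. Of 6 rhythmic output genes, such as Usp2 and Wee1, 0 passed either threshold, with log2 fold changes from -0.12 to 0.17. Glucocorticoids can reset peripheral clocks, and of 9 genes that they induce 0 passed either threshold. The 3 with the smallest p were Zbtb16 at -0.33, Mt1 at -0.11 and Klf9 at 0.13. Per1 is also induced through cAMP and calcium, as the immediate early genes are. Of 12 such genes 4 were higher in βFbln5KO at an unadjusted p under 0.05, where 0.981% of genes were, and 0 passed the adjusted threshold. Npas4, at a log2 fold change of 0.84, Arc at 0.66 and Fos at 0.50 had the smallest p of the list, with adjusted p of 0.081, 0.078 and 0.073.

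The clock genes differed widely in their spread between arrays of the same genotype. The within-group SD, pooled over both genotypes, was 0.644 for Per1, 0.564 for Nr1d1 and 0.554 for Dbp on the log2 scale, against a median of 0.128 over 13552 genes. These 3 ranked 334, 433 and 452 from the top, all within the top 5%, and Per3, at 0.340 and rank 1223, lay within the top 10%. Cry2, Nr1d2, Tef, Cry1 and Per2 lay between 0.214 and 0.287, also above the median of all genes. Clock, at 0.066, ranked 12237.

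**Figure D3:**
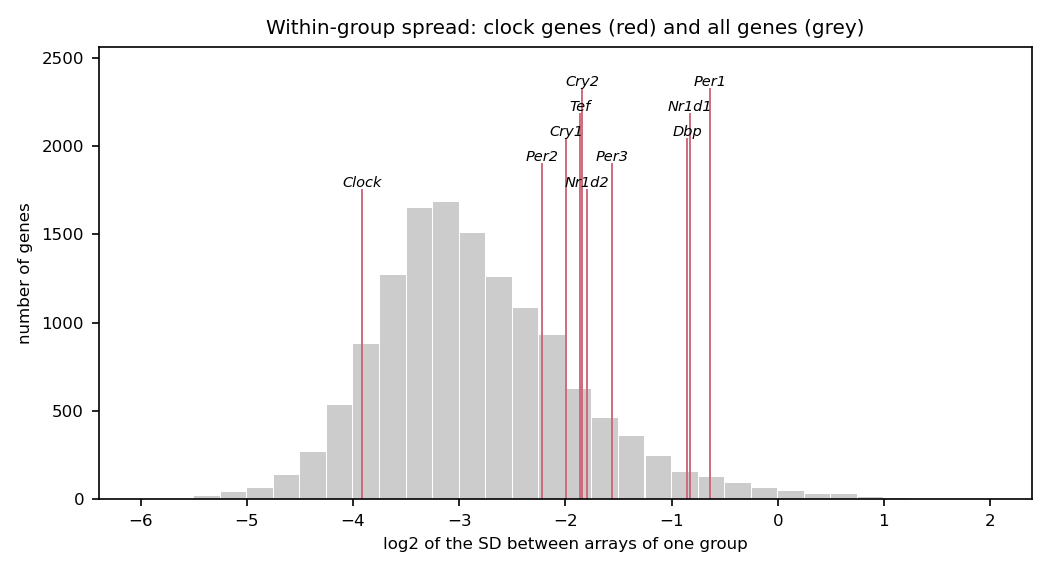
Histogram of the within-group SD of log2 signal (x axis, log2 of the SD) over 13552 genes, with the 10 clock genes marked in red. Per1, Nr1d1 and Dbp sit in the right tail at SDs of 0.644, 0.564 and 0.554, and Clock sits left of the median at 0.066.

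The arrays that were high or low recurred from gene to gene. βFbln5KO replicate 3 was the highest of the 8 arrays for 6 of the 10 genes, Dbp, Tef, Per1, Per2, Per3 and Nr1d2, and the lowest for Clock. βFbln5KO replicate 1 was the lowest for 4, Dbp, Tef, Per2 and Nr1d1. Relative to its mean over the 8 arrays, Dbp was at 0.69 on βFbln5KO replicate 3 and -0.72 on replicate 1, while Arntl was at -0.75 and -0.01 on the same arrays. Nr1d1 was at 0.26 and -0.97 there.

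**Figure D4:**
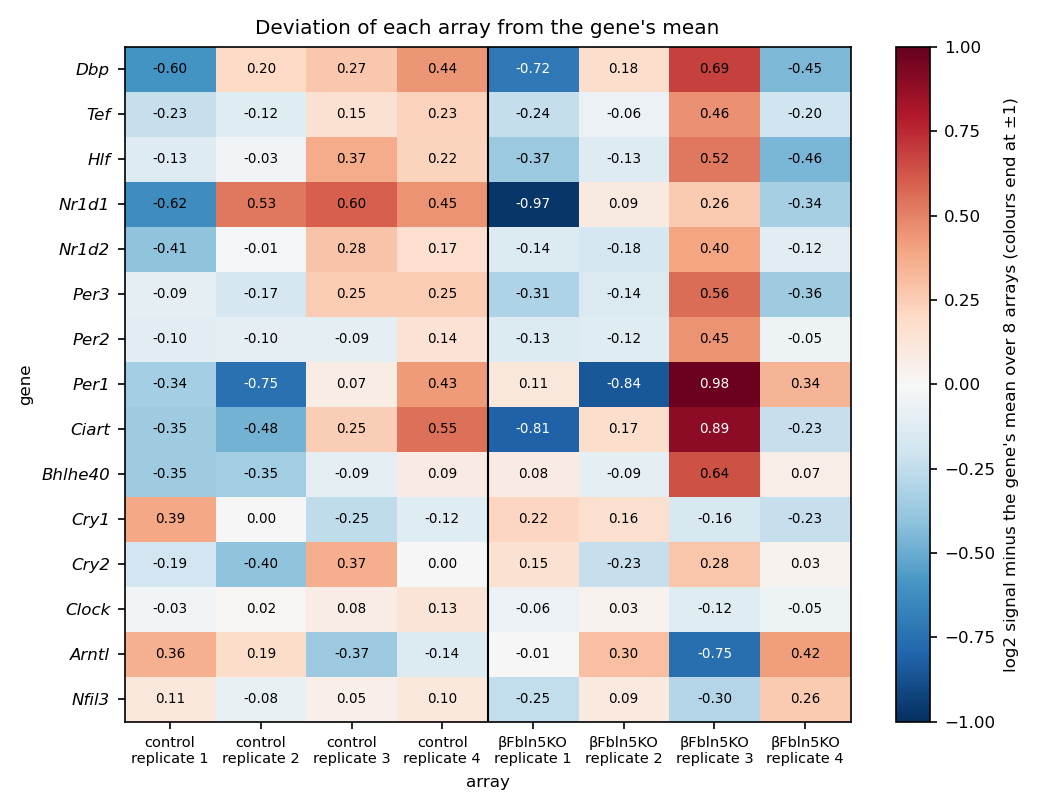
Deviation of each array from the gene's mean over the 8 arrays, on the log2 scale, for clock genes and partners (rows) and arrays (columns, control left of the line). On βFbln5KO replicate 3 Dbp, Tef, Hlf, the Period genes and the brighter Ciart probe are above their means while Arntl is below its mean, at -0.75.

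How far these genes moved together was tested against Dbp, over 11 relations on 8 arrays, by exact permutation of all 40320 pairings. Nr1d1 gave r = 0.89 (exact permutation p = 0.0056, adjusted over the 11 relations p = 0.032, Spearman's rho = 0.79, exact p = 0.028, adjusted p = 0.061). Tef gave r = 0.89 (exact permutation p = 0.0057, adjusted p = 0.032, rho = 0.98, exact p = 0.00040, adjusted p = 0.0044). Among 13551 other genes these correlations ranked 90 and 98 from the top, so many genes outside the clock followed Dbp as closely. The genes were chosen with earlier results of these data known, so these p-values describe the arrays and are not independent evidence.

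The next relations did not pass the adjustment. Nr1d2 gave r = 0.81 (exact permutation p = 0.016, adjusted p = 0.055, rho = 0.86, exact p = 0.011), Per3 r = 0.81 (exact permutation p = 0.020, adjusted p = 0.055, rho = 0.79, exact p = 0.028) and Per2 r = 0.67 (exact permutation p = 0.052, adjusted p = 0.114, rho = 0.81, exact p = 0.022). Arntl ran the opposite way with r = -0.67 (exact permutation p = 0.069, adjusted p = 0.127, rho = -0.71, exact p = 0.058), as did Cry1 with r = -0.58 (exact permutation p = 0.134, adjusted p = 0.211, rho = -0.62, exact p = 0.115). With normexp background correction the relation of Cry1 was near 0 (r = -0.065, exact permutation p = 0.877, rho = -0.095). Npas2 was computed among the 11 (r = -0.50, exact permutation p = 0.205, adjusted p = 0.282, rho = -0.55, exact p = 0.171), but it was not well above background on 7 of the 8 arrays and nothing is read from its relation. Clock (r = 0.30, exact permutation p = 0.464, adjusted p = 0.567, rho = 0.29, exact p = 0.501), Per1 (r = 0.25, exact permutation p = 0.538, adjusted p = 0.592, rho = 0.43, exact p = 0.299) and Cry2 (r = 0.17, exact permutation p = 0.683, adjusted p = 0.683, rho = 0.24, exact p = 0.582) had the weakest relations.

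Within genotypes, from deviations about the group means and 576 pairings, r was 0.93 for Nr1d1 (exact permutation p = 0.0087, adjusted p = 0.048) and 0.89 for Tef (exact permutation p = 0.0017, adjusted p = 0.019). Slide row holds 1 genotype each and 4 arrays are too few for a correlation per row. Without the 2 arrays farthest from the median of Dbp, βFbln5KO replicate 1 and control replicate 1, 0 of 11 relations passed the adjustment. Nr1d1 then gave r = 0.70 (exact permutation p = 0.136) while Tef gave r = 0.87 (exact permutation p = 0.018, adjusted p = 0.099). Neither adjusted call was thus kept on the 6 arrays left, over a narrower range of Dbp. Arntl gave r = -0.82 (exact permutation p = 0.042, adjusted p = 0.115) on the remaining 6 arrays. With 1 array left out at a time, r ran from 0.86 to 0.94 for Tef and from 0.84 to 0.96 for Nr1d1. By r, no relation passed without control replicate 1 or without βFbln5KO replicate 1, 2 or 4, and Nr1d1 did not pass without control replicate 4. By rho, Tef passed without control replicate 1 (exact permutation, adjusted p = 0.031). It also passed by rho without βFbln5KO replicate 1, 2 or 4 (exact permutation, adjusted p = 0.025, 0.0044 and 0.015). Some other relations passed there by rho too, but Nr1d1 did not. Clock gave r = 0.92 (exact permutation, adjusted p = 0.0087) without βFbln5KO replicate 3, against 0.30 with it.

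**Figure D5:**
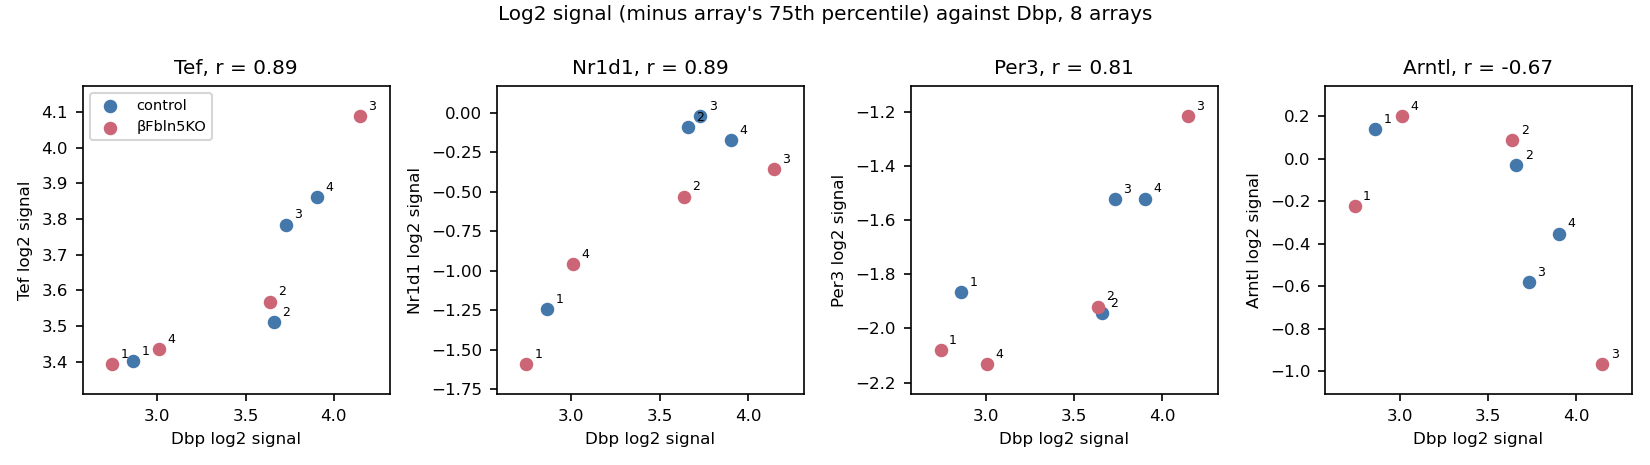
Log2 signal of Tef, Nr1d1, Per3 and Arntl (y axes) against that of Dbp (x axes), 1 numbered point per array, control in blue and βFbln5KO in red. Tef and Nr1d1 rise with Dbp (r = 0.89 each), Per3 gives r = 0.81, and Arntl runs the opposite way (r = -0.67).

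Over the 8 arrays, the 5 genes whose deviations were nearest to those of Dbp, out of 13551, were Slc23a4, 1700124L16Rik, Hrh3, Nr1d1 and Csmd2. Their root mean square differences from Dbp were 0.196, 0.202, 0.213, 0.246 and 0.252 on the log2 scale. Slc23a4 encodes a nucleobase transporter and Hrh3 the histamine H3 receptor. Hlf ranked 7, Tef 13, Per3 15 and Nr1d2 34 by this measure, while Per1 ranked 12729, Cry1 12591 and Arntl 13194.

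Levels of other cell types were set beside these patterns. The summed level of 9 acinar markers was 10.14 to 11.54 in control and 9.53 to 10.86 in βFbln5KO, all 9 were well above background on every array, and 9 of 9 had a log2 fold change below 0 with 0 past either threshold. It was 9.55 on βFbln5KO replicate 3, the highest array for Dbp, and 10.86 on βFbln5KO replicate 4, a low one. The summed β-cell markers were at 10.23 to 10.52 in control and 10.20 to 10.26 in βFbln5KO, with 0 of 8 past either threshold. Of 4 α-cell markers 0 passed the adjusted threshold, and of the δ-cell, PP-cell, duct, endothelial, macrophage and mesenchymal markers 0 passed either one. The endothelial sum was highest on βFbln5KO replicate 3, at 4.37 against 4.05 to 4.29 on the other arrays. Of its 4 markers only Plvap was highest there, at 3.62. Pecam1 (-1.62), Cdh5 (0.04) and Kdr (2.81) were each higher on a control array. The macrophage sum was highest on βFbln5KO replicate 1, at 2.59, where Dbp was lowest, and lowest on βFbln5KO replicate 3, at 2.02. On βFbln5KO replicate 1 the 4 macrophage markers did not move together. Lyz2 was at 0.07 there against -4.08 to -1.39 on the other arrays. Csf1r (1.92) and Cd68 (-0.17) lay within the control range, and Adgre1 (-1.71) lay below it. The part of cell composition in the clock values was not tested. Without βFbln5KO replicate 4, 0 of 10 clock genes passed either threshold. Out of 56605 probes, dim ones included, 11206 higher and 338 lower then passed the adjusted one. On all 8 arrays, the filter on dim probes left 3 higher and 1 lower. The cause of the rise without that array was not tested.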

How the data were processed

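Total RNA of islets from 4 control and 4 βFbln5KO samples was labelled with Cy3 and hybridised to Agilent mouse arrays of 62976 spots. Per the labels, signals were extracted with Agilent Feature Extraction 11.0.1.1. The deposited processed signal is an intensity after background subtraction and is not normalised between arrays. The authors also deposited a table of the signal divided by 1 number per array, used as an alternative, and its value is a ratio to that number (deposited as normalised signal).

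Here log2 of the processed intensity was taken, and the 75th percentile of the array was subtracted from it. Outlier values (0.356%) were left out and replicate spots averaged, giving 56605 probes, of which 32994 were named through their RefSeq identifiers. Genes were read from the probe with the highest mean. Genotypes were compared with limma 3.58.1 (lmFit, eBayes with trend) in R 4.3.3. P-values were adjusted by the Benjamini-Hochberg method across the 56605 probes, with 0.05 as the threshold. Single values and correlations were tested by exact two-sided permutation. Detection was read from the scanner's well-above-background flag, and the number of arrays limits the precision. The fit was tested on simulated data, in which 14 of the probes left unchanged were called beside 143 of 200 changed ones, and 5.09% of probes without any change passed an unadjusted p of 0.05. Figures were drawn with matplotlib.

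The members and the gene lists were chosen with earlier results of these data known. Named were all 10 genes with their probes, the partners Arntl, Npas2, Nfil3, Hlf, Rora, Rorb, Bhlhe40, Bhlhe41 and Ciart, other clock genes that passed an unadjusted p of 0.05, the 3 genes with the smallest p of the glucocorticoid and immediate early lists, and the 5 genes most like Dbp. Some genes of the lists are not reported here. Alternatives were normexp background correction, quantile normalization, a filter on dim probes, a floor, eBayes without trend, kept outliers, the methods' t-test, the table the authors normalised, a block for the replicate number, the mean of a gene's probes, and each array left out. Whether the replicate numbers pair the samples is not known, and the main fit did not use them.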

Additional observations from a re-analysis of the deposited data

Results flagged for a closer look

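Within each genotype, all 56 measured genes of the clock, machinery, rhythmic output, glucocorticoid-induced and immediate early lists were examined for an array that stood apart from the other 3 by more than Dixon's 95% critical value for 4 samples, as the gap to the next array over the whole range. Of 112 groups 9 did so, where chance gives about 1 in 20. For Per2 in control the share was 0.936, from control replicate 4 at 1.33 against 1.10 for the next array. For Per2 in βFbln5KO it was 0.856, from replicate 3 at 1.64 against 1.14. For Nr1d1 in control it was 0.875, from replicate 1 at -1.24 against -0.17. For Nr1d2 in βFbln5KO it was 0.894, from replicate 3 at 2.38 against 1.87. For Zbtb16, a glucocorticoid-induced gene, in control it was 0.881, from replicate 3 at -1.87 against -3.37. For Mt2, a metallothionein, in control it was 0.864, from replicate 3 at 7.05 against 6.40. For Wee1, a cell cycle kinase, in control it was 0.883, from replicate 4 at -0.84 against -1.41. For Nampt, an enzyme of NAD synthesis, in control it was 0.837, from replicate 4 at 0.02 against 0.31. For Nr4a1 in control it was 0.875, from replicate 4 at 3.60 against 2.30. Causes were not tested.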

How the results depend on the processing

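Under all 18 alternatives 0 clock genes and 0 other machinery genes passed the adjusted threshold. At the unadjusted threshold 1 clock gene passed with quantile normalization (Clock) and 2 at most with an array left out (0 to 2, with Nr1d1 and Clock without control replicate 1). Deviations of same-number arrays correlated at 0.20, 0.35, -0.26 and -0.05, and 4 of 8 arrays correlated best with their own number. These values do not settle whether the numbers pair the samples. With the replicate block 1 clock gene passed, Nr1d1, with an SE of 0.096 against 0.33 in the main fit (limma adjusted p = 0.219). The block also passed 1 machinery gene (Bhlhe40, limma adjusted p = 0.224). Of the machinery, 1 gene passed with the floor and 1 with the methods' t-test (Bhlhe41 in both), 3 with the mean of the gene's probes (Rora, Ciart, Timeless), and 0 to 1 with an array left out.

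Probes higher in βFbln5KO past the adjusted threshold numbered 3 with normexp, the filter or the deposited table, 2 with the floor or the replicate block, 82 with the methods' t-test and 6184 without trend, and 4 to 11206 with an array left out (11206 without βFbln5KO replicate 4, with 338 lower). Probes lower numbered 5 with quantile normalization or the t-test, 394 without trend, 0 with the block, and 1 to 338 with an array left out (2 without control replicate 2 or 4, 3 without control replicate 3). Relations with Dbp past the adjustment by r numbered 1 with normexp, 4 with quantile normalization, 0 without the 2 farthest arrays, and 0 to 3 with an array left out. By rho, none passed with normexp, with quantile normalization or without the 2 farthest arrays. Tef passed by rho whichever array was left out, and others did in some of these settings. With the other Dbp probe, chosen after seeing the data, 3 passed by r and only Tef by rho.

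Over all alternatives 158 recomputed log2 fold changes of the 10 genes kept their direction and side of the threshold and 21 changed sign. Nr1d2 was 0.035 with normexp and 0.032 with the mean of its probes, Cry1 was 0.024 with quantile normalization, 0.0014 in the deposited table and 0.078 with the mean of its probes, and Clock was 0.18 with the mean of its probes, which takes in a dim probe. Per3 was -0.39 with the mean of its probes, a dim one included. With an array left out Dbp ran from -0.41 to 0.059, Tef from -0.17 to 0.058, Per1 from 0.013 (without βFbln5KO replicate 3) to 0.62 (without βFbln5KO replicate 2), Per2 from -0.064 to 0.13, Per3 from -0.33 (without βFbln5KO replicate 3) to -0.025 (without βFbln5KO replicate 4), Cry1 from -0.089 to 0.12, Cry2 from -0.00055 to 0.26 and Nr1d2 from -0.15 to 0.075. The correlation with Dbp changed sign for Cry1 without the 2 farthest arrays (0.11), and with an array left out ran from -0.14 to 0.39 for Per1 and from -0.079 to 0.37 for Cry2. The deposited table gave no value for Nr1d1. The causes were not tested. A probe at the edge of the background has only a bound, and precision rests on 4 arrays per genotype.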

Other observations

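Per1 had the widest spread of the 10 clock genes and its correlation with Dbp did not pass the threshold. Its highest control array was replicate 4, its highest of all was βFbln5KO replicate 3, and its lowest βFbln5KO array was replicate 2. Of the 12 immediate early and cAMP-induced genes 4 met all of these, Nr4a1, Nr4a2, Crem and Sik1, while 7, among them Fos, Fosb, Arc and Npas4, were highest on another array than Per1. This comparison was chosen after the values were seen, and so were the 2 genes given in full. The share of all genes with the same extreme arrays was not computed, so nothing is read from the 4. Nr4a1, an orphan nuclear receptor, measured 2.30, 2.15, 2.12 and 3.60 in control and 2.78, 2.11, 4.60 and 2.93 in βFbln5KO, in replicate order. Sik1, a kinase of the CREB coactivators, measured -3.43, -3.20, -3.99 and -2.34 in control and -3.49, -3.72, -1.74 and -3.18 in βFbln5KO. The log2 fold change between genotypes was 0.56 for Nr4a1 (limma adjusted p = 0.608) and 0.21 for Sik1 (limma adjusted p = 0.864).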
